A study of Mus musculus with 16 samples.

Results

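Skeletal muscle cells that received night serum from mice without Bmal1 in the liver were compared with cells that received day serum from wild-type mice. The cells were C2C12 myotubes, muscle fibres that form in culture when myoblasts of this mouse cell line fuse. Each culture was exposed to mouse serum for 24 hours before its polyadenylated RNA was sequenced. The comparison was between 8 of the 16 libraries, 4 of LKO ZT16 and 4 of WT ZT4. It covered the 11802 genes whose mean over all libraries was at least 0.5 FPKM (fragments per kilobase of transcript, scaled to library size), of 24346 in the table (48.5%). LKO stands for the donors labelled Bmal1hep-/-, which lack Bmal1 in the liver, and ZT is zeitgeber time, counted in hours from lights on. ZT4 is day, the rest phase of a mouse, and ZT16 is night, its active phase. The 2 groups differ in donor genotype and in hour at once, so a difference between them belongs to neither alone. WT ZT16 and LKO ZT4, with 4 libraries each, give the other corners of the design. They also entered the fit that gave the spread of each gene. The p-values and intervals of single genes therefore rest on all 16 libraries, unless stated otherwise.

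Bmal1 (gene symbol Arntl) pairs with Clock to drive the transcription of clock genes, including the Per and Cry repressors that close the daily loop. In the liver this clock helps time the output of glucose, lipids, bile acids and secreted proteins into the blood. Serum carries those signals, together with hormones and signals of feeding, to tissues such as muscle. The myotubes themselves kept an intact Bmal1 gene in every group, since the deletion was in the animals that gave serum. The labels read here do not state the Cre driver, the number of donor mice or any pooling of serum, and they call the libraries biological replicates with no further detail. All p-values therefore measure the spread between libraries, which may be partly technical.

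The 8 libraries were alike in size. Depth relative to the deepest library, estimated from genes with few reads, ran from 71.7% to 100% in WT ZT4 and from 72.9% to 97.8% in LKO ZT16. Between 14546 and 14789 genes were above 0 in WT ZT4, and between 14621 and 14901 in LKO ZT16. The summed FPKM of 12 myotube markers was 5398 to 6414 in WT ZT4 and 5468 to 6301 in LKO ZT16, so both groups carried the labelled cell type at a similar level. That of 7 markers of undifferentiated myoblasts was 384 to 455 in WT ZT4 and 374 to 395 in LKO ZT16. RNA listed for these cells was thus present in both groups too. The summed FPKM of 8 hepatocyte markers did not exceed 0.0613 in WT ZT4 and 0.0919 in LKO ZT16, and Ttr, Serpina1a, Serpina1b, Fgb and Tat were at 0 in all 8 libraries. Markers of blood cells summed to at most 1.14, of macrophages to at most 2.23, of endothelium to at most 0.184 and of adipocytes to at most 0.352. In bulk RNA, fewer cells of a type and less RNA per cell cannot be told apart.

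The first question was whether the myotubes in LKO ZT16 serum could be told from those in WT ZT4 serum. No gene of 11802 (0%) passed an adjusted p under 0.05 in limma's moderated test on log2(FPKM + 1), and the smallest adjusted p was 0.386. At an unadjusted p under 0.05 there were 645 genes (5.47%), of which 333 were higher in LKO ZT16 (2.82%) and 312 lower (2.64%). This count depended on the fit, with 964 genes in a fit of the 8 libraries alone and 1038 with library weights. The 4 libraries of LKO ZT16 all lay above the 4 of WT ZT4 in 291 genes (2.47%) and all below in 242 (2.05%). The median difference over all genes was 0.00 on the log2 scale.

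A p-value that misses the threshold does not show that cells were alike, so the interval of each difference was read as well. For 10809 of the 11802 genes (91.59%), the 95% interval of LKO ZT16 minus WT ZT4 lay within 0.5 log2 of 0, which is a 1.41-fold difference in either direction. Over the 6 pairs of serum groups this share ran from 89.04% in LKO ZT16 minus WT ZT16 to 92.48% in WT ZT16 minus WT ZT4. It therefore bounds the differences but hardly separates one pair from another. The median half-width of the intervals was 0.19 log2. The bound is on log2(FPKM + 1), so for genes of low FPKM it is wider as a fold of FPKM itself. With a pseudocount of 0.1 in place of 1, 9510 genes (80.6%) had an interval within the margin.

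The distance between 2 libraries was measured as the root mean square difference of log2(FPKM + 1) over the tested genes. It averaged 0.258 between LKO ZT16 and WT ZT4 libraries and 0.252 within the groups. The excess of 0.00687 was not larger than the spread between libraries (one-sided exact permutation test over the 35 ways of dividing 8 libraries, p = 0.2, and 0.229 after adjustment over the 6 pairs of groups). The smallest p that this design allows is 0.0286. Single distances between the groups ran from 0.206 to 0.296, and those within LKO ZT16 from 0.239 to 0.283 and within WT ZT4 from 0.236 to 0.264. The closest pair of libraries across the groups was thus closer than any pair within either group, and the farthest was farther than any.

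The other 5 pairs of serum groups were read in the same way. Night serum of the 2 genotypes, LKO ZT16 against WT ZT16, gave 6 genes past the threshold, 12.8% of genes at an unadjusted p under 0.05 and a distance excess of 0.0291 (exact permutation p = 0.0286, adjusted 0.0858). LKO ZT16 against LKO ZT4 gave 2 genes and 11.9%, with an excess of 0.00928 (p = 0.229 in the exact permutation test). The other diagonal, LKO ZT4 against WT ZT16, shares no library with LKO ZT16 against WT ZT4. It gave 0 genes past the threshold, 10.6% at an unadjusted p under 0.05 and an excess of 0.0142 (exact permutation p = 0.0286, adjusted 0.0858). LKO ZT4 against WT ZT4 gave 1 gene and 10.3%, with an excess of 0.00876 (p = 0.114 in the exact permutation test). The 2 wild-type sera gave 0 genes, 3.97% and an excess of 0.0034 (exact permutation p = 0.2). By both measures WT ZT16 was thus no farther from WT ZT4 than LKO ZT16 was. Whether these pairs differ from each other in their distance was not tested, and several of them share libraries. The percentages use a single spread per gene for all pairs, though the groups differed in spread. Mean distances within groups were 0.277 to 0.287 in pairs with LKO ZT4 and 0.241 to 0.252 in the others. The shared spread is thus narrow for pairs with LKO ZT4 and wide for the others. Fits of 2 groups alone were not run for the other pairs.

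**Figure D1:**
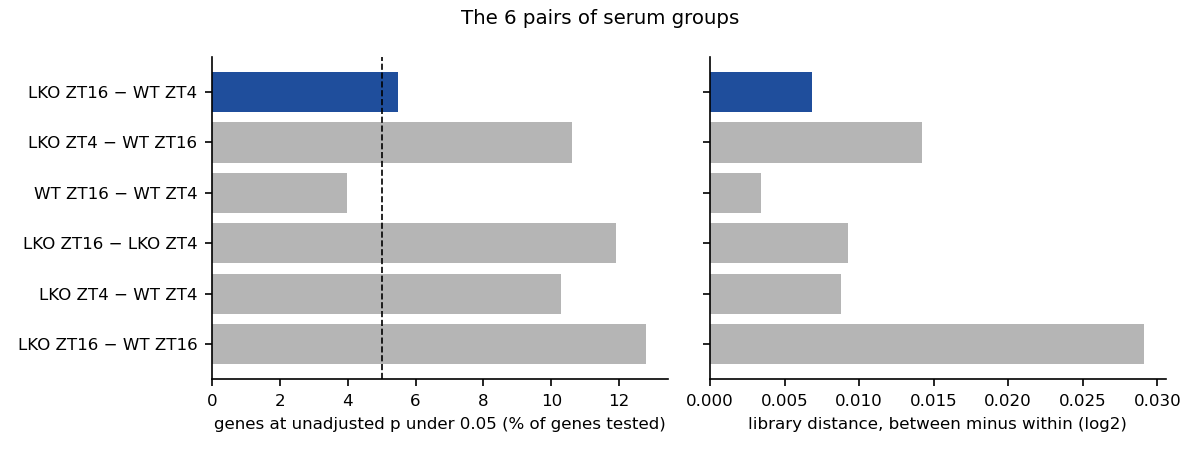
For each of the 6 pairs of serum groups, the left bars give the percentage of the 11802 tested genes at an unadjusted p under 0.05 (dashed line at 5%) and the right bars give the mean distance between libraries of different groups minus that within groups, in log2(FPKM + 1). LKO ZT16 minus WT ZT4, in dark blue, has 5.47% of genes and an excess of 0.00687. LKO ZT16 minus WT ZT16 has 12.8% and 0.0291, and WT ZT16 minus WT ZT4 has 3.97% and 0.0034. The percentages use a single estimate of spread per gene, shared by all pairs.

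Genes with an interaction between genotype and time were read next for the difference between the 2 groups. In the genotype-by-time interaction, the sum of LKO ZT16 and WT ZT4 minus the sum of LKO ZT4 and WT ZT16, 11 of 11802 genes passed an adjusted p under 0.05 (0.0932%). The interaction gives LKO ZT16 and WT ZT4 the same weight, so it does not fix the difference between them. In 10 of the 11 genes the level was low in both of these groups and high in WT ZT16 and LKO ZT4, and in Chpt1 it was the reverse. The difference LKO ZT16 minus WT ZT4 in the 11 genes ran from −0.21 to 0.09 log2, with a median of −0.09. Its 95% interval was within 0.5 log2 of 0 in 10 of the 11, all but Rpl38, near the 91.59% of all tested genes. The 2 groups overlapped in 9 of the 11. In Rpl39 and Gm12191 every LKO ZT16 library lay below WT ZT4, as in 2.05% of all tested genes. By these counts the 11 genes were not more alike between the 2 groups than other genes. The intervals rest on the spread within all 4 groups, which differed. Rps27rt had an SD of 1029 FPKM in LKO ZT4, against 98.2 in WT ZT4 and 131 in LKO ZT16. In Chpt1 the SD of LKO ZT4 was the smaller, at 0.527 against 2.33 and 0.971.

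Several of the 11 belong to the ribosome or its making. Rps21, Rpl39 and Rpl38 encode proteins of the cytosolic ribosome, Rps27rt and Rpl34-ps1 are a retrogene and a pseudogene copy of ribosomal protein genes, and Snhg6 is a noncoding RNA that hosts a small nucleolar RNA. Slirp encodes a mitochondrial RNA-binding protein, Cox7a2 a subunit of cytochrome c oxidase, Tmem208 a protein of the endoplasmic reticulum and Chpt1 a choline phosphotransferase of phospholipid synthesis. Gm12191 is a predicted gene. Reads of a ribosomal protein gene and its near-identical copies could have been split between them by the authors' counting, so the levels of Rps27rt, Rpl34-ps1 and Gm12191 are uncertain.

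Many messengers of ribosomal proteins begin at a run of pyrimidines, known as a 5′ terminal oligopyrimidine tract, through which their translation is regulated. The start sites of 2 ribosomal protein genes in the set are shown from 15 bases before to 15 bases after the annotated start. Runs of at least 5 pyrimidines are in capitals, wherever they lie in the window. They come from RefSeq on GRCm38.p6, for Rpl39 at chrX:37085208-37085237 on the minus strand and for Rpl38 at chr11:114668565-114668594 on the plus strand.
Rpl39: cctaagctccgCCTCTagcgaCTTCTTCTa
Rpl38: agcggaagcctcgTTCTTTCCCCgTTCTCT
Of 62 tested ribosomal protein genes with such a window, 47 held a run of at least 5 pyrimidines (75.8%), as did 47.3% of all 32851 windows in the table and 5 of the 7 interaction genes with a window. A gene was counted if any of its windows held a run, while the share of all windows counted each window once, so the units differ. Because a run was counted on either side of the start, these shares do not show that a messenger begins with one. The run is a description of the letters and says nothing of how these genes are controlled in the cultures.

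Snhg6 had the smallest adjusted p in the interaction (0.000591, limma). Its FPKM in WT ZT4 was 45.1, 55.3, 48.8 and 44.0, and in LKO ZT16 it was 51.3, 44.6, 55.9 and 54.0. The groups overlapped throughout, with a difference of 0.09 ± 0.10 log2 (SE, 95% interval −0.12 to 0.30). In WT ZT16 the values were 74.1, 81.6, 76.1 and 63.8, and in LKO ZT4 they were 70.9, 76.7, 94.2 and 88.1, so every library of the other 2 groups stood above all 8. The interaction was −1.27 ± 0.14 log2.

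Rps21 had 1754, 2135, 1937 and 1624 FPKM in WT ZT4 and 1530, 1881, 1816 and 1712 in LKO ZT16, with a difference of −0.10 ± 0.15 log2 (SE). WT ZT16 ran from 2966 to 3467 and LKO ZT4 from 2139 to 3956. The 8 libraries of WT ZT4 and LKO ZT16 were intermingled, and the highest of them, at 2135, was just under the lowest of LKO ZT4. Rpl38 followed the same order, with 1386, 1457, 1514 and 1358 FPKM in WT ZT4, 1292, 1418, 1132 and 1279 in LKO ZT16 and 2320 to 3238 in WT ZT16. In LKO ZT4 its 4 values were 1462, 3146, 1704 and 3095, so 2 of those libraries were near the lower groups.

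Rpl39 was the ribosomal protein gene of the set in which WT ZT4 and LKO ZT16 did not overlap. Its FPKM was 1664, 1560, 1637 and 1673 in WT ZT4 and 1374, 1457, 1447 and 1368 in LKO ZT16, a difference of −0.21 ± 0.11 log2 (SE, unadjusted p 0.0712, adjusted 0.867, limma). LKO ZT16 was therefore on the far side of WT ZT4 from WT ZT16, which ran from 2215 to 2569. The SE and p of this difference rest on the spread within all 4 groups. For Rpl39 the SD was 51.4 FPKM in WT ZT4 and 46.8 in LKO ZT16, but 164 in WT ZT16 and 418 in LKO ZT4. The SE is thus wide for the spread inside the 2 compared groups. Slirp gave a similar difference of −0.21 ± 0.13 log2, but its groups overlapped, with 185 to 225 FPKM in WT ZT4 and 156 to 203 in LKO ZT16.

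Tmem208 was the interaction gene with the smallest p between the 2 groups. It had 77.3, 80.9, 86.9 and 67.9 FPKM in WT ZT4 and 67.5, 65.0, 71.7 and 67.7 in LKO ZT16. WT ZT4 replicate 4 lay within the LKO ZT16 range and the other 3 wild-type libraries above it, and the difference was −0.20 ± 0.07 log2 (SE, unadjusted p 0.00984, adjusted 0.867, limma). Chpt1 was the gene with the opposite pattern. Its FPKM was 20.7 to 26.1 in WT ZT4 and 23.3 to 25.4 in LKO ZT16, and every library of WT ZT16 and LKO ZT4 lay below the lowest of these, between 18.6 and 20.5.

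**Figure D2:**
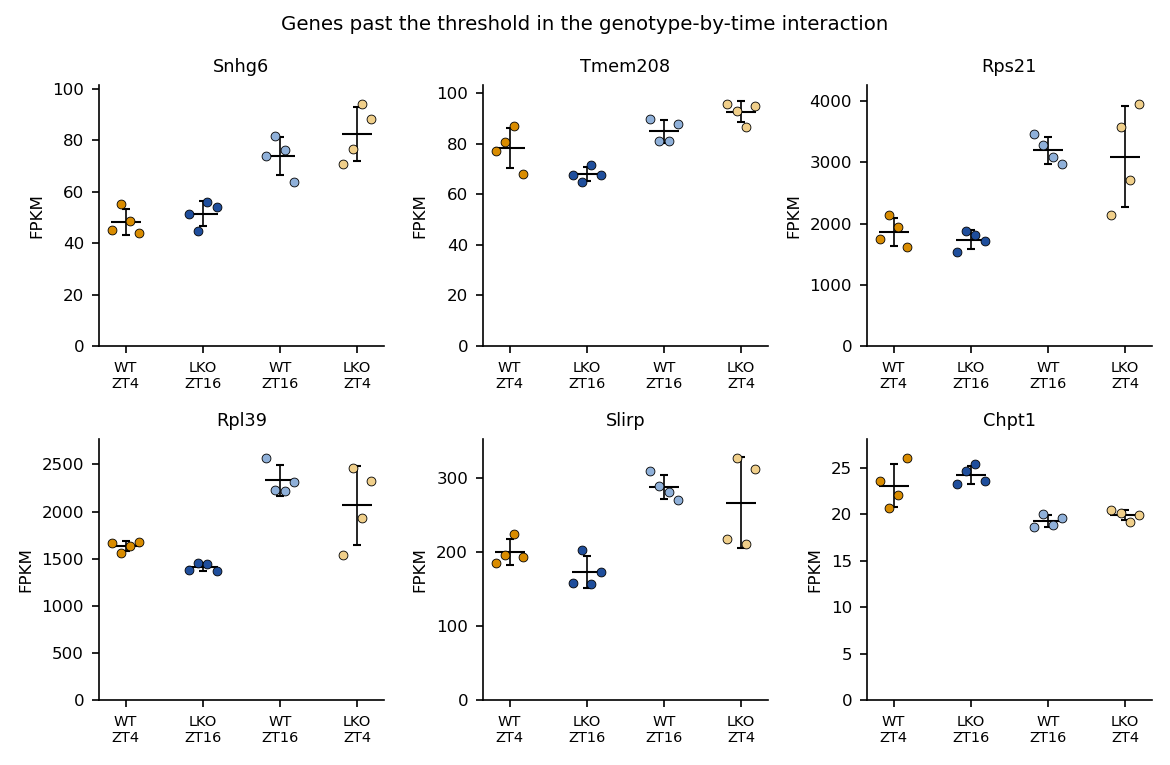
FPKM of 6 of the 11 interaction genes in each library (points, 4 per serum group), with the group mean (bar) and SD (whisker). In Snhg6, Rps21, Rpl39, Slirp and Tmem208 the means of WT ZT4 and LKO ZT16 are below those of WT ZT16 and LKO ZT4, and in Chpt1 they are above.

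The level of short transcripts was compared with that of long ones in each library. The mean level of genes under 500 nucleotides minus that of genes over 2000, each as a deviation from the mean over libraries, was −0.045 ± 0.025 log2 (SD, n = 4) in WT ZT4 and −0.053 ± 0.046 in LKO ZT16. It was 0.053 ± 0.042 in WT ZT16 and 0.045 ± 0.15 in LKO ZT4. Of the 11 interaction genes, Chpt1, at 1447 nucleotides, was the longest, and 10 had a median transcript length between 348 and 801. The LKO ZT4 libraries were at −0.042, 0.12, −0.11 and 0.21, so 2 of them were below 0, as were all 8 libraries of WT ZT4 and LKO ZT16. A difference between groups in this measure was not tested, nor was the part of transcript length in the interaction. With a trend against length removed from each library, still no gene of LKO ZT16 minus WT ZT4 passed.

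Of 83 cytosolic ribosomal protein genes tested, none passed the threshold and 73 were lower in LKO ZT16 by their mean. The interval was within 0.5 log2 of 0 in 78 of them (94%), near the 91.59% of all tested genes. Their median difference was −0.08 log2, against 0.00 over all genes and 0.16 for WT ZT16 minus WT ZT4. The highest member was Rps27, at 0.79 ± 0.52 log2, in which LKO ZT16 replicate 3 stood at 80.9 FPKM and the other 7 libraries between 4.68 and 11.1. It is named after its values were seen. Its copy Rps27rt, described above, was at 2635 to 2997 FPKM in WT ZT4 and LKO ZT16. How reads were shared between Rps27 and Rps27rt was not tested, so the level of Rps27 is uncertain too. Rpl29 was the 1 member at an unadjusted p under 0.05. It had 917, 924, 850 and 836 FPKM in WT ZT4 and 735, 822, 783 and 785 in LKO ZT16, with no overlap and a difference of −0.17 ± 0.07 log2 (SE). All 77 genes of the mitochondrial ribosome tested had intervals within the margin, with a median of −0.06. The 4 members at an unadjusted p under 0.05, all lower, are 5.19% of them, near the 5.47% of all genes, and Mrps11 had the smallest p (−0.21 ± 0.08 log2).

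Of 80 genes of oxidative phosphorylation tested, 76 (95%) had an interval within 0.5 log2 of 0, also near the share of all genes, and the median difference was −0.02. All 31 proteasome genes tested were within the margin with a median of −0.02, and all 25 genes of mitochondrial biogenesis and the tricarboxylic acid cycle with a median of 0.02. All 33 cell cycle genes tested (median −0.04), all 39 of autophagy and lysosome (median 0.03) and all 20 aminoacyl-tRNA synthetases (median −0.04) were within the margin too.

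The second question was where knockout night serum was unlike wild-type day serum. The gene with the smallest p over the whole table was 5430431A17Rik, a long noncoding RNA with no known role. As a predicted transcript it fell outside the rule for named genes, and it is named after its values were seen. Its FPKM was 27.2, 14.95, 17.5 and 19.5 in WT ZT4 (mean 19.8 ± 5.27, SD, n = 4) and 8.47, 6.22, 6.004 and 6.998 in LKO ZT16 (6.92 ± 1.11). All 4 knockout libraries lay below all 4 wild-type ones. The difference was −1.37 ± 0.24 log2 (SE, 95% interval −1.88 to −0.86, adjusted p 0.386, limma). WT ZT16 serum gave 8.35, 9.08, 6.60 and 8.84, a range that overlapped that of LKO ZT16, and LKO ZT4 gave 16.8, 18.2, 6.02 and 13.7. In this gene the 2 night groups were thus near each other and the day groups above them except for LKO ZT4 replicate 3. It was the 1 gene that passed under any alternative tried, with an adjusted p of 0.0129 with library weights and 0.0455 in a fit of the 8 libraries alone.

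RefSeq places the start of 5430431A17Rik in a tandem repeat, which is shown because repeated sequence bears on how uniquely reads can be placed nearby. The 250 bases before the start are at chr7:44484267-44484516 on the plus strand of GRCm38.p6. Capitals mark the 3 exact copies of the unit GGGCTGTAGTGTGGGTACAG, searched on both strands, and near copies in lower case lie between them.
5430431A17Rik: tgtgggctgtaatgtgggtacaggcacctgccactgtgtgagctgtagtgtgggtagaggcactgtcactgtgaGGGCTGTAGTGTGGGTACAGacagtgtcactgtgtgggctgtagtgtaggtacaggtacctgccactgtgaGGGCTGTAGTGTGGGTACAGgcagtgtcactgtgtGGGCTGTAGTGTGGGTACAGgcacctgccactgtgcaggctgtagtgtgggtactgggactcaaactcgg
No other of the 32851 windows held this unit (0.00304% did, which is this 1 window). Whether repeats touch the transcript's own reads was not tested.

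Among genes with a lower level in LKO ZT16, Tmem150a, a membrane protein that helps anchor a phosphatidylinositol kinase at the plasma membrane, had the next smallest p among named genes. It had 15.04, 16.1, 16.4 and 14.8 FPKM in WT ZT4 and 13.02, 12.4, 12.1 and 13.2 in LKO ZT16. The groups stood apart with little spread inside each, and the difference was −0.28 ± 0.06 log2 (SE, adjusted p 0.536, limma). WT ZT16 (14.1 to 15.1) and LKO ZT4 (15.1 to 17.1) were both above every LKO ZT16 library. Fancc, of the Fanconi anaemia DNA repair complex, had 5.40 to 6.32 FPKM in WT ZT4 and 3.98 to 4.57 in LKO ZT16, with no overlap and a difference of −0.38 ± 0.09 log2.

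Dtx3, a ubiquitin ligase, had 14.1 to 16.5 FPKM in WT ZT4 and 11.7 to 12.7 in LKO ZT16, a difference of −0.34 ± 0.08 log2. Tex30 had 28.6 to 31.5 FPKM in WT ZT4 and 24.2 to 25.5 in LKO ZT16 (−0.26 ± 0.06), and Stamos, a noncoding RNA, 0.617 to 1.52 and 0 to 0.240 (−0.75 ± 0.18). These 3 did not overlap either. Neither did Naf1, an assembly factor of small nucleolar ribonucleoproteins (−0.24 ± 0.06), Cdk2ap1, an inhibitor of a cell cycle kinase (−0.23 ± 0.06), and Surf6, a nucleolar protein of ribosome assembly (−0.23 ± 0.06). Sphk1, the kinase that makes sphingosine 1-phosphate, overlapped in 1 wild-type library, with 18.9, 16.7, 11.8 and 17.6 FPKM against 11.9, 11.5, 10.9 and 12.6 (−0.42 ± 0.11). For each of these genes the adjusted p was 0.867 (limma), and none passed the threshold. The lower genes were picked by smallest p in this comparison, so their lack of overlap largely follows from the choice. Over all tested genes, 242 (2.05%) stood apart and lower.

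Ass1 stood lowest in LKO ZT16 of the 4 sera. Ass1 encodes argininosuccinate synthase, the enzyme that joins citrulline to aspartate on the way to arginine. Its FPKM was 22.6, 14.9, 23.4 and 24.5 in WT ZT4 and 8.45, 7.95, 15.9 and 17.4 in LKO ZT16. The groups overlapped in WT ZT4 replicate 2 only, which lay between the 2 low and the 2 higher knockout libraries. The difference was −0.79 ± 0.22 log2 (SE, unadjusted p 0.00275, adjusted 0.867, limma), and with each library left out in turn it ran from −0.96 to −0.61. WT ZT16 had 31.4, 30.3, 34.2 and 31.5, the highest of the 4 sera with no overlap with LKO ZT16, and Ass1 passed the threshold in LKO ZT16 minus WT ZT16. By their means, WT ZT4 was between the 2 night sera, at 21.3 ± 4.39 FPKM (SD, n = 4) against 12.4 ± 4.95 in LKO ZT16.

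Isg15 had the smallest p among genes higher in LKO ZT16. It encodes a small ubiquitin-like protein that interferon induces strongly. Its FPKM was 2.35, 1.47, 1.66 and 1.77 in WT ZT4 (1.81 ± 0.38, SD, n = 4) and 2.79, 2.86, 3.98 and 3.76 in LKO ZT16 (3.35 ± 0.61). All 4 knockout libraries were above all 4 wild-type ones, with a difference of 0.63 ± 0.14 log2 (SE, adjusted p 0.749, limma). LKO ZT4 had 3.06, 4.39, 4.27 and 2.89 and WT ZT16 had 1.72, 2.12, 2.13 and 2.67. Isg15 was thus high in both knockout sera and lower in both wild-type sera, a split by genotype at each hour.

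The Isg15 promoter carries the element through which interferon signalling reaches its targets, and it is shown for that reason. The 100 bases from 130 to 31 before the start are at chr4:156200849-156200948 on the minus strand of GRCm38.p6 (RefSeq). Capitals mark overlapping matches to the interferon-stimulated response element, searched on both strands as GAAA, any 2 bases and GAAA again.
Isg15: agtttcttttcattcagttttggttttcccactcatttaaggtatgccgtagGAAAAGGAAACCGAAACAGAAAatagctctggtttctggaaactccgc
The element was present in 2.98% of all 32851 windows of 250 bases before a start, and in 5 of the 15 tested interferon-stimulated genes with a window (Isg15, Stat2, Bst2, Igtp and B2m). Here too a gene was counted by any of its windows, unlike the share of all windows. A match is a description of the letters and not a measured binding site.

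The rest of the interferon list gave little. Of 38 interferon-stimulated genes, 16 passed the filter, 12 of these were higher in LKO ZT16 by their mean, and the median difference was 0.06. Apart from Isg15, Ddx58, which encodes the RNA sensor RIG-I, was higher at an unadjusted p under 0.05, with 1.37, 1.12, 1.03 and 1.54 FPKM in WT ZT4 and 2.06, 1.63, 1.99 and 1.20 in LKO ZT16 (0.26 ± 0.12 log2, SE). Its groups overlapped through LKO ZT16 replicate 4. Psmb10, a subunit of the immunoproteasome, was lower without overlap, with 11.2 to 13.3 FPKM in WT ZT4 and 9.15 to 11.03 in LKO ZT16 (−0.21 ± 0.10).

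Dhrs3, which reduces retinaldehyde to retinol and is induced by retinoic acid, was the next of the higher genes. It had 2.24, 2.32, 2.02 and 2.75 FPKM in WT ZT4 and 4.24, 4.34, 3.42 and 3.77 in LKO ZT16, with no overlap and a difference of 0.57 ± 0.15 log2 (SE, adjusted p 0.867, limma). LKO ZT4 reached 2.53 to 4.07 and WT ZT16 1.62 to 3.46. Lrp6, a co-receptor of Wnt ligands, had 8.53 to 9.81 FPKM in WT ZT4 and 10.1 to 12.2 in LKO ZT16 (0.26 ± 0.07). Slc39a10, a zinc importer, had 7.80 to 9.81 and 10.8 to 13.7 (0.34 ± 0.10).

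Lrrc8b, a subunit of volume-regulated anion channels, had 6.09 to 7.31 FPKM in WT ZT4 and 7.74 to 9.03 in LKO ZT16, a difference of 0.25 ± 0.07 log2. Parp11, an ADP-ribosyltransferase, Kbtbd11, a Kelch repeat protein, Rsph3a, a radial spoke protein, Ginm1 and Fam63b completed the 10 higher genes. All 10 stood apart from WT ZT4 without overlap, and their differences ran from 0.25 to 0.63 log2. They were picked by smallest p in this comparison, so the lack of overlap largely follows from the choice. Over all tested genes, 291 (2.47%) stood apart and higher. Each had an adjusted p of 0.749 or 0.867, and none passed the threshold.

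**Figure D3:**
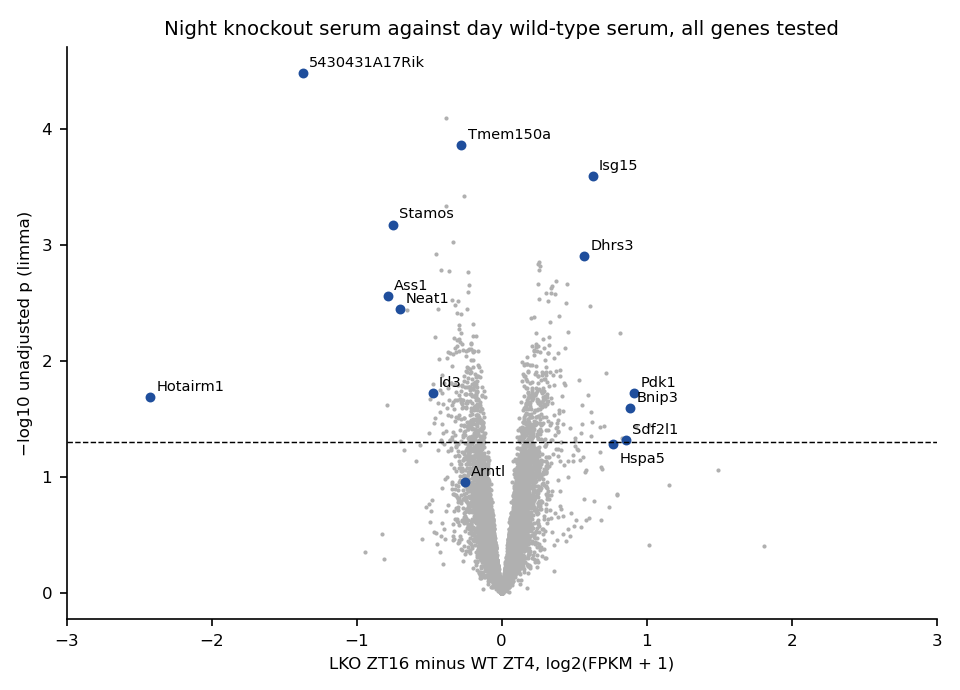
Difference LKO ZT16 minus WT ZT4 in log2(FPKM + 1) against −log10 of the unadjusted p of the limma fit for the tested genes, with 14 genes named and a dashed line at 0.05. Snora78 lies beyond the axis, and 5430431A17Rik has the smallest p, at a difference of −1.37.

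**Figure D4:**
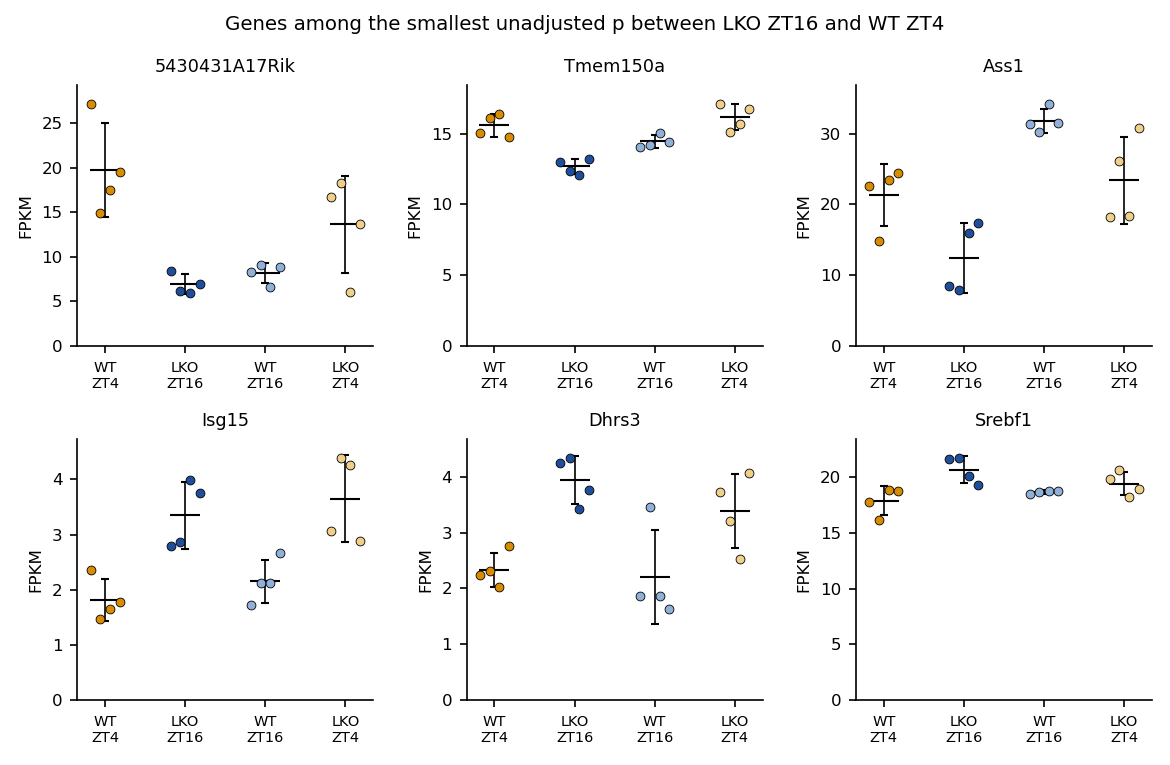
FPKM in each library (points, 4 per serum group), with group mean (bar) and SD (whisker), for 6 genes that had small unadjusted p between LKO ZT16 and WT ZT4 but did not pass the adjusted threshold. Isg15 is high in both knockout sera, Ass1 is lowest in LKO ZT16, and 5430431A17Rik is low in both night sera.

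Gene groups were read by their counts and medians beside those of all genes, and no member of any of the 33 groups with at least 5 tested genes passed the adjusted threshold in LKO ZT16 minus WT ZT4. Over all tested genes, 51.6% were higher in LKO ZT16 by their mean, 5.47% were at an unadjusted p under 0.05 and 91.59% had an interval within the margin. The group that stood highest was protein folding in the endoplasmic reticulum, where chaperones and the machinery that removes misfolded proteins are induced by the unfolded protein response. All 23 tested members were higher in LKO ZT16 by their mean, the median difference was 0.51, and 5 members (21.7%) were at an unadjusted p under 0.05. The interval was within 0.5 log2 of 0 in 2 of the 23 (8.7%), the smallest share among the 33 groups.

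The 4 knockout libraries did not share the difference evenly. Hspa5, the chaperone BiP, had 512, 417, 536 and 548 FPKM in WT ZT4 and 630, 1407, 1299 and 462 in LKO ZT16. Replicates 2 and 3 were far above every wild-type library, while replicate 4 lay inside the wild-type range, and the difference was 0.77 ± 0.37 log2 (SE, unadjusted p 0.0516, limma). Sdf2l1, a co-chaperone of the same compartment, had 33.2, 28.5, 36.5 and 42.4 FPKM against 48.3, 106, 109 and 29.2 (0.86 ± 0.40). Hsp90b1, the chaperone GRP94, had 322, 289, 350 and 346 against 416, 700, 664 and 320 (0.61 ± 0.28). Sel1l and Syvn1, which form the ubiquitin ligase that clears misfolded proteins, were also highest in replicates 2 and 3 and lowest in replicate 4 among the knockout libraries (0.55 ± 0.24 and 0.55 ± 0.25).

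As the mean log2(FPKM + 1) of the 23 genes, WT ZT4 libraries were at 6.14, 6.003, 6.16 and 6.22 and LKO ZT16 libraries at 6.38, 7.04, 6.98 and 6.04. The median difference of the group was 0.355 without LKO ZT16 replicate 2 and 0.705 without replicate 4, and it was above 0 with each library left out. WT ZT16 lay lower than both groups, from 5.86 to 5.90, and LKO ZT4 ran from 6.17 to 7.66. LKO ZT16 was thus not at the wild-type night level in any library, and 2 of its 4 libraries were well above the wild-type day level.

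Promoters of 2 genes of this group are shown because they hold the endoplasmic reticulum stress element, searched on both strands as CCAAT, any 9 bases and CCACG, and given in capitals. The Hspa5 window is chr2:34771990-34772069 on the plus strand and the Syvn1 window chr19:6046496-6046575 on the plus strand, both RefSeq on GRCm38.p6.
Hspa5: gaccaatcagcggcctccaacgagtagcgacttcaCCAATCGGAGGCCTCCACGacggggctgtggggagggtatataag
Syvn1: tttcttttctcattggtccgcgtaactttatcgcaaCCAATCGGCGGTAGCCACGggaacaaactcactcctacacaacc
The element was present in 0.113% of all 32851 windows and in 8 of the 18 tested group members with a window, Hspa5, Hsp90b1, Calr, Canx, Pdia6, Dnajc3, Creld2 and Syvn1. Members were again counted by any of their windows. The list was drawn from known targets of this response, so the share describes the list and not these cultures.

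Targets of hypoxia-inducible factor and glycolytic enzymes also had their highest means in LKO ZT16 replicates 2 and 3 among the 8 libraries. Of 20 hypoxia genes tested, 16 were higher in LKO ZT16 by their mean, 5 (25%) were at an unadjusted p under 0.05, and the median difference was 0.17. In 4 of them LKO ZT16 stood apart and higher, as in 2.47% of all tested genes. The interval was within the margin in 9 of the 20 (45%). As the mean log2(FPKM + 1) of the list, WT ZT4 was at 3.98, LKO ZT16 at 4.23, LKO ZT4 at 4.30 and WT ZT16 at 4.07. A level above WT ZT4 was thus not particular to LKO ZT16. Pdk1, the kinase that holds pyruvate back from the mitochondrion, had 1.89, 2.32, 3.08 and 2.67 FPKM in WT ZT4 and 3.75, 8.13, 6.99 and 4.21 in LKO ZT16 (0.91 ± 0.35 log2, SE, unadjusted p 0.019, adjusted 0.867, limma). Bnip3, a receptor for removal of mitochondria, had 9.65, 12.2, 13.7 and 14.9 against 16.4, 37.7, 27.5 and 19.1 (0.89 ± 0.36). Both genes were without overlap, and knockout replicates 2 and 3 were again the highest.

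P4ha1, a collagen prolyl hydroxylase, had 19.9 to 25.5 FPKM in WT ZT4 and 30.0, 43.2, 39.4 and 30.3 in LKO ZT16 (0.59 ± 0.23). In Slc16a3, the lactate exporter MCT4, WT ZT4 had 9.12, 5.95, 9.60 and 9.51 and LKO ZT16 11.1, 25.4, 19.2 and 11.04 (0.83 ± 0.38). Of 19 glycolysis genes tested, 18 were higher by their mean with a median of 0.14, and Slc16a3 was the 1 at an unadjusted p under 0.05 (5.26%). In WT ZT16 Slc16a3 was at 21.1, 6.41, 6.71 and 14.4, with 2 libraries inside the range of WT ZT4 and 2 above it.

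Lipid synthesis genes were mostly higher as well. Of 18 fatty acid synthesis genes tested, 15 were higher in LKO ZT16 by their mean, 4 (22.2%) were at an unadjusted p under 0.05, and the median was 0.17. Srebf1, the transcription factor that drives these genes, had 17.8, 16.1, 18.9 and 18.8 FPKM in WT ZT4 and 21.6, 21.7, 20.1 and 19.3 in LKO ZT16, with no overlap and a difference of 0.20 ± 0.06 log2 (SE, unadjusted p 0.00428, adjusted 0.867, limma). Scd1, a stearoyl-CoA desaturase, had 66.7, 66.2, 71.7 and 70.4 against 91.1, 96.2, 94.9 and 73.1 (0.36 ± 0.13). Its groups did not overlap, though replicate 4 of LKO ZT16 was close to the wild-type range.

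Scd2, a second desaturase, gave 135 to 170 FPKM in WT ZT4 and 158 to 240 in LKO ZT16 (0.39 ± 0.16), and Elovl5, a fatty acid elongase, 43.5 to 47.4 and 46.5 to 54.0 (0.15 ± 0.07), both with overlap. Of 25 cholesterol synthesis genes tested, 24 were higher by their mean with a median of 0.14, and Dhcr7, which makes the last step to cholesterol, was the 1 at an unadjusted p under 0.05 (29.2 to 32.6 against 32.8 to 39.0 FPKM, 0.21 ± 0.08). The cholesterol median rested on 1 library to a large part, at 0.04 without LKO ZT16 replicate 2 and 0.25 without replicate 4. Hmgcs1, an early enzyme of the pathway, had 80.6, 59.4, 80.8 and 65.6 FPKM in WT ZT4 and 70.9, 110, 103 and 67.8 in LKO ZT16, with replicates 2 and 3 above the wild-type range and replicates 1 and 4 inside it.

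The lowest group was noncoding RNA, made up of hosts of small nucleolar RNAs and nuclear long noncoding RNAs. Of 18 tested members, 15 were lower in LKO ZT16 by their mean and 6 (33.3%) were lower at an unadjusted p under 0.05, against 2.64% of all genes, with a median of −0.25 that ran from −0.29 to −0.19 with each library left out. Snhg5 had 57.9, 63.4, 59.1 and 52.3 FPKM in WT ZT4 and 39.7, 53.7, 48.2 and 47.6 in LKO ZT16 (−0.30 ± 0.09 log2, SE, unadjusted p 0.00304, adjusted 0.867, limma). Gas5, a host RNA that accumulates when growth stops, had 11.01 to 12.15 in WT ZT4 and 8.01 to 10.1 in LKO ZT16, with no overlap (−0.34 ± 0.12). Snhg20 had 18.1 to 21.4 and 12.3 to 19.6 (−0.40 ± 0.15).

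Neat1, the RNA scaffold of nuclear paraspeckles, had 46.9, 76.5, 35.6 and 59.0 FPKM in WT ZT4 and 40.5, 26.7, 26.3 and 36.0 in LKO ZT16 (−0.70 ± 0.21, unadjusted p 0.00355, adjusted 0.867, limma). Only WT ZT4 replicate 3 lay inside the LKO ZT16 range. In WT ZT16 Neat1 was at 21.4 to 33.4 and in LKO ZT4 at 30.2 to 44.5, so WT ZT4 was the highest of the 4 sera by its mean. Snhg6, described above, is also a host RNA and had a small positive difference, so the members of this group did not all go one way.

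Targets of serum response factor and YAP, which report on actin tension and serum stimulation, were also mostly lower. Of 30 tested, 28 were lower in LKO ZT16 by their mean and 4 (13.3%) were lower at an unadjusted p under 0.05, and the median was −0.10. Tagln, an actin-binding protein, had 699, 487, 516 and 460 FPKM in WT ZT4 and 397, 479, 403 and 450 in LKO ZT16 (−0.31 ± 0.12 log2, SE, adjusted p 0.867, limma). Myl9, a myosin light chain, had 97.1 to 128 and 82.4 to 111 (−0.28 ± 0.11). Fhl1, a LIM domain protein of muscle, had 182 to 216 and 152 to 179, without overlap (−0.24 ± 0.09). The median of the list was −0.05 without LKO ZT16 replicate 1, and WT ZT4 replicate 1 was the highest of the 8 libraries, at 6.57 in mean log2(FPKM + 1) against 6.11 in LKO ZT16 replicate 1, the lowest.

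Of 26 TGF-beta targets tested, 21 were lower by their mean with a median of −0.08, which was −0.02 without WT ZT4 replicate 1. Id3, an inhibitor of differentiation factors, had 98.1, 64.2, 73.4 and 68.7 FPKM in WT ZT4 and 39.7, 56.3, 58.7 and 63.5 in LKO ZT16, with no overlap (−0.47 ± 0.18). Timp1, an inhibitor of matrix proteases, had 1464 to 2017 and 1223 to 1408, also without overlap (−0.34 ± 0.13). Ltbp3, which binds latent TGF-beta, was the 1 member higher at an unadjusted p under 0.05 (0.15 ± 0.07).

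**Figure D5:**
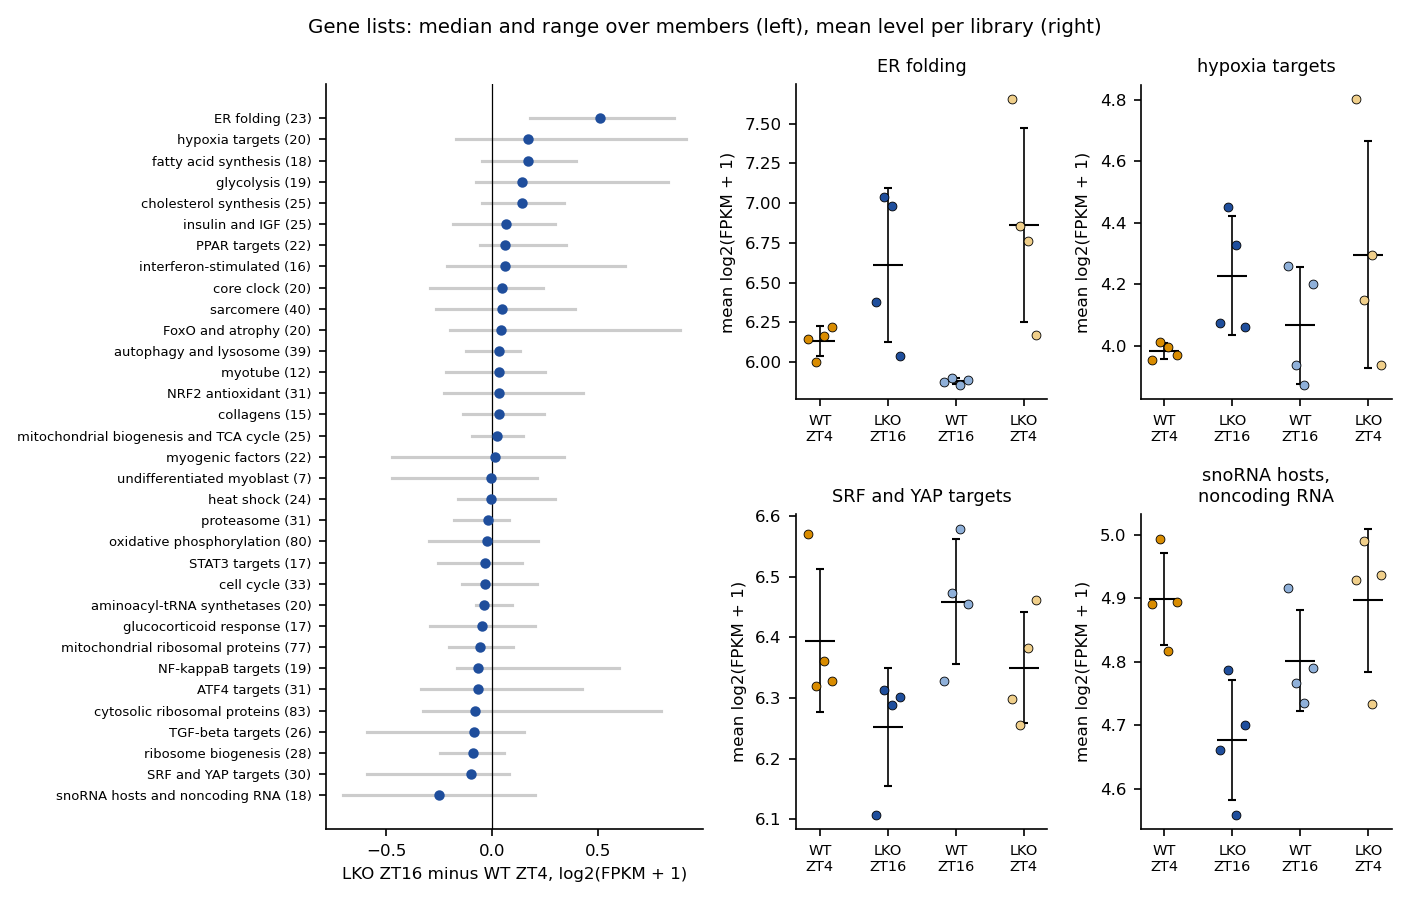
Left, LKO ZT16 minus WT ZT4 in log2(FPKM + 1) for 33 gene lists (median as a point, lowest to highest member as a grey line, number of tested genes in brackets). Right, mean log2(FPKM + 1) of 4 lists in each library (points, 4 per serum group), with the group mean (bar) and SD (whisker). The folding list has the highest median, 0.51, with LKO ZT16 libraries spread from 6.04 to 7.04, and the noncoding RNA list has the lowest, −0.25.

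In the muscle clock, 14 of 20 genes tested were higher by their mean, none passed the threshold, and the median was 0.05. The interval was within 0.5 log2 of 0 in 17 of the 20 (85%), a smaller share than the 91.59% of all genes. Arntl, the gene deleted in the donors' livers and intact in the myotubes, had 7.88, 7.50, 4.64 and 5.22 FPKM in WT ZT4 and 6.29, 5.41, 4.25 and 4.35 in LKO ZT16. The groups overlapped (−0.25 ± 0.15 log2, SE, adjusted p 0.868, limma), and since the cells were not deleted for it, this gene does not check the labels.

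Per1 had 4.73 to 7.11 FPKM in WT ZT4 and 5.23 to 7.07 in LKO ZT16, and Per2 1.44 to 2.17 and 1.73 to 2.13. These repressors of the loop overlapped between the groups, and the sign of each small difference turned under some alternatives. Nr1d1, the repressor REV-ERB alpha, had 15.4 to 18.1 and 14.4 to 21.2, and Cry1, a repressor, 8.27 to 8.85 and 7.32 to 11.95. Tef, an output factor of the clock, was the 1 member at an unadjusted p under 0.05, with 27.6, 24.0, 27.0 and 30.4 FPKM in WT ZT4 and 31.4, 28.6, 31.2 and 30.1 in LKO ZT16 (0.15 ± 0.07). Dbp, a related output factor, had 2.11 to 4.19 and 3.09 to 4.02 (0.24 ± 0.15).

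Of 40 sarcomere genes tested, 23 were higher and 17 lower by their mean, with a median of 0.04. The interval was within the margin in 29 of them (72.5%), a smaller share than over all genes. The 4 at an unadjusted p under 0.05 (10%) were all higher in LKO ZT16. Atp2a1, the calcium pump SERCA1, had 50.5, 55.9, 48.5 and 60.6 FPKM in WT ZT4 and 75.0, 61.4, 65.1 and 62.4 in LKO ZT16, with no overlap (0.29 ± 0.11 log2, SE, adjusted p 0.867, limma). Mybpc2, the fast myosin-binding protein C, had 2.29 to 3.18 and 3.44 to 4.39, also without overlap (0.39 ± 0.17). Ryr1, the calcium release channel, and Myom2, an M-band protein, overlapped (0.25 ± 0.10 and 0.21 ± 0.07). Of 22 myogenic factors the median was 0.01, and 17 (77.3%) had an interval within the margin.

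Of 25 insulin and IGF pathway genes tested, 21 were higher in LKO ZT16 by their mean, with a median of 0.07, and 22 (88%) had an interval within 0.5 log2 of 0. Akt1, a central kinase of insulin action, was lower (−0.12 ± 0.05) and Pik3r1, a regulatory subunit of the lipid kinase above it, and Igfbp3, an IGF-binding protein, were higher (0.19 ± 0.09 and 0.30 ± 0.14), all at an unadjusted p under 0.05 and none passing. Of 17 glucocorticoid-responsive genes, 12 were lower by their mean with a median of −0.05, and Sgk1, a kinase induced by corticosteroids, had 51.4 to 61.8 FPKM in WT ZT4 and 43.6 to 51.6 in LKO ZT16 (−0.29 ± 0.12). Of 22 PPAR targets, which respond to fatty acids, 17 were higher by their mean with a median of 0.06, and Ucp3, a mitochondrial carrier induced by them, had 0.974 to 1.29 and 1.51 to 1.83 with no overlap (0.34 ± 0.12).

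The remaining lists held few members past an unadjusted p of 0.05. FoxO and atrophy genes had a median of 0.04 over 20 genes, with Sesn3, a stress-induced inhibitor of mTORC1 signalling, at 5.47 to 6.36 FPKM in WT ZT4 and 6.13 to 9.75 in LKO ZT16 (0.31 ± 0.12). Antioxidant genes of the NRF2 pathway had a median of 0.03 over 31 genes, with Gpx1, a glutathione peroxidase (−0.18 ± 0.07), and Txn1, thioredoxin (−0.17 ± 0.07), lower without overlap. Hexa, a lysosomal hexosaminidase, was higher without overlap (0.13 ± 0.05). Medians were −0.01 for heat shock, −0.07 for NF-kappaB targets, −0.03 for STAT3 targets, 0.03 for collagens and −0.09 for ribosome biogenesis. Without LKO ZT16 replicate 3 the medians of the NF-kappaB and STAT3 targets were above 0, at 0.09 and 0.04.

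Targets of the stress factor ATF4 turned on 1 wild-type library. Chac1, which degrades glutathione, had 40.3, 130, 34.9 and 48.8 FPKM in WT ZT4 and 49.98, 41.8, 43.0 and 38.5 in LKO ZT16, and Phgdh, the first enzyme of serine synthesis, 307, 395, 298 and 308 against 307, 301, 301 and 291. WT ZT4 replicate 2 was the high one in both. The median of the 31 ATF4 targets tested was −0.07 with all libraries and 0.08 without WT ZT4 replicate 2, so its sign rests on that library. None of the 31 was at an unadjusted p under 0.05.

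The largest differences by size were mostly uneven between libraries. Snora78, a small nucleolar RNA, was listed at 0 in WT ZT4 and in LKO ZT16 replicates 1 and 2, and at 5960 and 1329 FPKM in LKO ZT16 replicates 3 and 4, and Hotairm1, a long noncoding RNA, was at 18.3, 4.43, 4.43 and 17.7 in WT ZT4 and at 0, 0, 0 and 11.8 in LKO ZT16. Both were singled out after their values were seen. Among genes without overlap, Prl2c2, the secreted protein proliferin, had 9.79, 34.97, 37.4 and 37.1 FPKM in WT ZT4 and 59.2, 50.4, 40.9 and 38.8 in LKO ZT16 (0.80 ± 0.51 log2, SE, unadjusted p 0.139, limma). Without WT ZT4 replicate 1 its difference was 0.35 log2. Tmem223 had 2.51 to 4.03 FPKM and 0.760 to 2.47 (−0.65 ± 0.19). Cd3g and Ctla2b, at low levels, were lower without overlap (−0.50 ± 0.23 and −0.46 ± 0.19).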

How the data were processed

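Per the labels and the file headers, the authors deposited FPKM per gene for libraries of polyadenylated RNA. The submitters' processing notes name STAR, FastQC 0.11.8 and the builds mm10 and GRCm39, with no roles. No source used here names the program or annotation behind FPKM. Of 24346 genes, 7122 were 0 throughout, and 27 carried dates for symbols (19 tested, none named). Log2(FPKM + 1) was fitted over 4 groups with limma 3.58.1 in R 4.3.3 (trend, 12 residual degrees of freedom) and Benjamini-Hochberg adjustment. Fold changes on this scale understate those of low genes. Read depth per gene is unknown. The script was tested on simulated data.

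The members and lists were chosen with earlier results of these data known. Genes were named by smallest p (10 per direction), largest difference without overlap (5 per direction), the interaction and other pairs (up to 12 each), list membership (up to 4) and Arntl. Columns were matched to titles by library; 7 carry another replicate number than the title, and titles were used. The deviations of same-numbered libraries had low correlations (−0.016 to 0.22), and no pairing was used. These correlations were not set against those of libraries with different numbers. Alternatives were the pseudocount, filter, scaling, length trend, library weights, a fit of 2 groups, a replicate block and each library left out. Lengths were found in GENCODE M21 for 96.3% of genes. Sequences came from RefSeq, and figures from matplotlib 3.10.9 in Python 3.11.15.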

Additional observations from a re-analysis of the deposited data

Results flagged for a closer look

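The 11 genes past the threshold in the genotype-by-time interaction differ between genotypes in their night minus day difference, by limma's test of the interaction itself. In log2 the interaction was −1.27 for Snhg6, −1.49 for Rps27rt, −1.58 for Rps21, −1.12 for Rpl34-ps1 and −1.04 for Rpl39. It was −0.61 for Gm12191, −1.13 for Slirp, −0.56 for Tmem208, −1.64 for Rpl38, 0.51 for Chpt1 and −0.69 for Cox7a2.

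Single libraries stood far from the other 3 of their group in 19 of 289 groups of 4 examined by Dixon's ratio. Chance flags about 1 in 20 groups, or 14.4 of these, and many genes are also members of the lists. In WT ZT4 replicate 1, Lrrc8b was low at 6.086 FPKM and Prl2c2 at 9.786, while Rpl34-ps1 was high at 1414 FPKM. The same library was high in mean log2(FPKM + 1) of the SRF and YAP targets (6.571) and the TGF-beta targets (5.666). In WT ZT4 replicate 2, Slc16a3 was low at 5.945 FPKM, and Ciart (7.769), Phgdh (395.3) and Chac1 (129.7) were high, as was the mean of the aminoacyl-tRNA synthetases (6.624). In WT ZT4 replicate 3, Txn1 was high at 517 FPKM. In LKO ZT16 replicate 1, Slc39a10 was high at 13.72 FPKM, Surf6 low at 11.66 and the mean of the SRF and YAP targets low at 6.107. In LKO ZT16 replicate 2, Ciart was high at 4.045 FPKM and Myl9 at 110.6. In LKO ZT16 replicate 4, Sgk1 was high at 51.61 FPKM, Hotairm1 at 11.85 and the mean of the glucocorticoid list at 5.475.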

How the results depend on the processing

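The count of genes past the threshold was 0 under all alternatives but library weights and a fit of the 2 groups alone, with 1 gene each, 5430431A17Rik (−1.44 and −1.37 log2). The cause was not tested. At an unadjusted p under 0.05 there were 1038 genes with library weights and 964 in the fit of the 2 groups alone, against 645 in the fit used above. With a library left out, the count past the threshold stayed at 0 and the unadjusted count ran from 409 to 900. The distance excess then ran from 0.000554 to 0.0146 and the count of intervals within the margin from 10432 to 10609. A pseudocount of 0.1 gave 9510 such intervals (80.6%). The distance kept its side of the threshold in all settings run. The sign turned for Rpl34-ps1 with the length trend removed (−0.0179), and for Per1 with equal summed FPKM (0.0076). With a library left out, Cox7a2 ran from −0.0566 to 0.0161, Per1 from −0.1094 to 0.0575, Per2 from −0.0476 to 0.0776, Nr1d1 from −0.0247 to 0.1511 and Chac1 from −0.548 to 0.0728. The median of the myoblast markers ran from −0.126 without WT ZT4 replicate 1 to 0.068 without replicate 3. With the replicate number of the titles as a block, 0 genes passed and 10807 intervals were within the margin, and with the numbers of the column names, added after seeing the data, 0 and 10886. The block changed no call, but the smallest adjusted p (limma) was 0.0743 with the titles and 0.591 with the column names, against 0.386 without a block. The number of libraries limits the precision, and counts were not used here.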
